A study of Sus scrofa with 9 samples.

Results

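The SMC5/6 complex is a ring-shaped chromosome complex built around the ATPases SMC5 and SMC6, relatives of the cohesin and condensin ATPases. NSMCE4A closes the ring near the ATPase heads as its kleisin, NSMCE1 and NSMCE3 form a RING and MAGE pair bound to it, and NSMCE2 is a SUMO ligase. SLF1 and SLF2 bring the complex to damaged DNA, SLF1 through the ubiquitin ligase RAD18. The complex is known for the removal of joint DNA molecules during homologous recombination, and it sits on the chromosome axes of meiotic cells.

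Of 8 listed genes of the complex, 6 were found by symbol among 22342 gene identifiers: SMC6, NSMCE1, NSMCE2, NSMCE4A, SLF1 and SLF2. No identifier carried the symbols SMC5 and NSMCE3, so the other ATPase and the MAGE subunit are not analysed here. The genes were listed by their place in the complex, which itself was chosen by the measured level of SMC6, high in spermatocytes of these same libraries. The values of SMC6 are therefore given as a description without a test, and the question asked of the other 5 genes, called partners below, is whether they follow SMC6. All 6 genes passed the filter on low counts, as did 16802 genes in all.

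RNA came from pig testis cells labelled as spermatogonia (the mitotic germ cells), spermatocytes (the cells in meiosis) and round spermatids (the haploid cells after meiosis), with 3 libraries per stage. Libraries are numbered 1 to 3 for spermatogonia and for round spermatids, and 2 to 4 for spermatocytes. The labels name no breed, age, treatment or animal, and they do not say how cells were separated. The table headings name the KIT receptor for spermatogonia and the pachytene stage of meiosis for spermatocytes.

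Library totals ran from 47963279 to 64639201 estimated counts. Levels below are CPM unless they are named as TPM. CPM are read counts relative to the library total, scaled with TMM factors, which correct for differences in RNA composition. TPM is the deposited abundance per transcript length, and comparisons between genes on TPM rest on the lengths used for it. Relative to NSMCE1, the counts per TPM were 2.4 for SMC6 and 5.19 for NSMCE2. Markers of several cell types were found in every stage. KIT, which the heading of the spermatogonia names, was not highest there. It stood at 6.22 to 6.54 CPM in spermatogonia, 6.65 to 8.08 in spermatocytes and 22.8 to 25.7 in round spermatids. The summed level of 8 spermatocyte markers was 1275 to 1326 CPM in spermatogonia, 2375 to 2734 in spermatocytes and 452 to 525 in round spermatids. The sum of 7 round spermatid markers was 2427 to 2481, 1288 to 2499 and 5085 to 7612 CPM, and that of 8 spermatogonial markers 94.8 to 98.7, 36.2 to 47.6 and 147 to 206 CPM. Members of a list did not all follow its sum. ACRV1, SPACA1 and ACR were lower in round spermatids than in spermatogonia, unlike the other round spermatid markers. STAG3, SPO11 and DMC1 were higher in spermatogonia than in spermatocytes, unlike the other spermatocyte markers. ID4, at 62.9 to 127 CPM, was a large part of the spermatogonial sum in round spermatids. UCHL1 fell there to 1.39 to 2.69 CPM from 24.9 to 27.6 in spermatogonia. Of somatic markers, 6 of Leydig cells summed to 297 to 316 CPM in spermatogonia and to 1.88 to 33.8 elsewhere, 6 of myoid cells to 4547 to 5528 CPM in round spermatids and to 8.11 to 21.9 elsewhere, and 8 of Sertoli cells to 32.3 to 74.1 CPM in the earlier stages and 238 to 323 in round spermatids. Their part in the results below was not tested, and in such bulk samples fewer cells of a type and less RNA per cell cannot be told apart.

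SMC6 stood far above its other levels in the spermatocyte libraries. It was at 78.4, 81.1 and 78.2 CPM in spermatogonia 1, 2 and 3, at 1746, 1904 and 1357 in spermatocytes 2, 3 and 4, and at 233, 68.4 and 241 in round spermatids 1, 2 and 3. The spermatocyte libraries lay apart from all others, while round spermatids overlapped spermatogonia because round spermatids 2 was below all 3 of them. The log2 fold change was 4.40 ± 0.421 (standard error) for spermatocytes minus spermatogonia, at place 49 from the top among 16802 genes. It was -3.21 ± 0.398 for round spermatids minus spermatocytes and 1.19 ± 0.371 for round spermatids minus spermatogonia. Behind these levels were 5442 to 5729 counts per library in spermatogonia, 70910 to 89060 in spermatocytes and 4136 to 14270 in round spermatids.

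**Figure D1:**
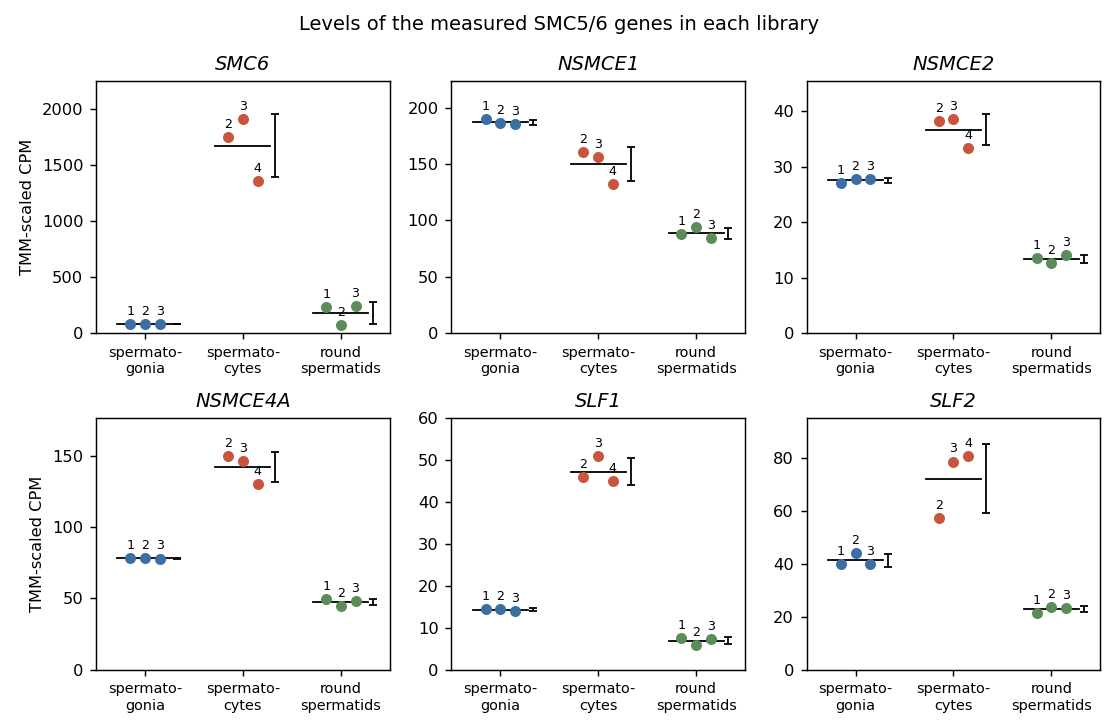
Points show TMM-scaled CPM in each library, labelled with its number, in a panel for each gene with an axis that starts at 0. The black line is the mean and the bar beside it ± 1 SD of 3 libraries. SMC6 exceeds 1300 CPM in all spermatocyte libraries, and NSMCE1 is the gene whose highest points are in spermatogonia.

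Partners moved in the same direction as SMC6 in most cases between spermatogonia and spermatocytes, with smaller changes. In edgeR's quasi-likelihood test with Benjamini-Hochberg adjustment over all 16802 genes, 4 of 5 partners were higher and 1, NSMCE1, was lower. Over all genes 29.3% were called higher and 44% lower, 73.4% in either direction. The median log2 change of the partners was 0.80, and that of all genes -0.32. The count depends on the scaling, as shown for each gene below.

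SLF1 had the largest rise of the partners. This BRCT and ankyrin repeat protein stood at 14.6, 14.4 and 14.1 CPM in spermatogonia, at 45.9, 51.0 and 45.02 in spermatocytes and at 7.49, 5.98 and 7.22 in round spermatids. The stages did not overlap, with spermatocytes highest and round spermatids lowest. Its level in spermatocytes was 3.29-fold that in spermatogonia (log2 fold change 1.72 ± 0.121, edgeR, adjusted p = 1.51e-06), and it was the partner whose rise held in all 21 alternatives (1.12 to 1.96, adjusted p from 5.81e-49 to 0.00104).

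SLF2, which binds SLF1, rose less. It stood at 39.9, 44.1 and 40.0 CPM in spermatogonia, at 57.3, 78.6 and 80.6 in spermatocytes, where library 2 was lowest, and at 21.6, 23.8 and 23.4 in round spermatids. Again no stages overlapped. Its log2 fold change was 0.80 ± 0.138 (edgeR, adjusted p = 0.000408). It was 0.38 without normalization factors (adjusted p = 0.0502) and 0.26 on log2(TPM + 1) (limma, adjusted p = 0.353).

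Within a library, the ratio of these partners to each other does not depend on how libraries are scaled. The TPM ratio of SLF1 to SLF2 was 0.283 ± 0.0162 (SD, n = 3) in spermatogonia, 0.545 ± 0.0998 in spermatocytes and 0.246 ± 0.0393 in round spermatids. Spermatocytes did not overlap either other stage, with an exact two-sided permutation p of 0.1 each, the smallest that 3 against 3 libraries allow. Spermatogonia and round spermatids overlapped (exact permutation p = 0.2).

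NSMCE4A, the kleisin, stood at 78.1, 78.3 and 77.9 CPM in spermatogonia, at 149.6, 146 and 129.8 in spermatocytes and at 49.5, 44.7 and 48.1 in round spermatids. Spermatocytes were highest and round spermatids lowest, with no overlap. The log2 fold change for spermatocytes minus spermatogonia was 0.86 ± 0.0976 (edgeR, adjusted p = 2.43e-05), and 0.33 on log2(TPM + 1) (limma, adjusted p = 0.107).

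NSMCE2, the SUMO ligase, stood at 27.1, 27.7 and 27.8 CPM in spermatogonia, at 38.2, 38.5 and 33.4 in spermatocytes and at 13.6, 12.6 and 14.0 in round spermatids. On the CPM scale the order was that of NSMCE4A. Its log2 fold change for spermatocytes minus spermatogonia was 0.41 ± 0.106 (edgeR, adjusted p = 0.00493). This direction turned with the scaling: it was -0.008 without normalization factors (adjusted p = 0.95) and -0.10 on log2(TPM + 1) (limma, adjusted p = 0.633), where the levels were 11.5 ± 0.254 TPM in spermatogonia and 10.7 ± 0.286 in spermatocytes.

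NSMCE1, the RING protein, went the other way. It stood at 189.7, 187 and 185 CPM in spermatogonia, at 161, 156 and 133 in spermatocytes and at 87.8, 93.9 and 84.1 in round spermatids. It was highest in spermatogonia, with no overlap between stages. The log2 fold change of spermatocytes minus spermatogonia was -0.32 ± 0.104 (edgeR, adjusted p = 0.0169), the same as the median of all genes. That call was lost in 9 of 21 alternatives (adjusted p from 0.000389 to 0.591 over the 21), among them RLE size factors (-0.14, adjusted p = 0.334), and was lost without spermatogonia 1 (adjusted p = 0.0577) or spermatogonia 2 (0.0517).

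Within a library, NSMCE1 was lower relative to NSMCE4A in spermatocytes than in the other stages. The TPM ratio of NSMCE1 to NSMCE4A was 2.38 ± 0.0266 in spermatogonia, 1.05 ± 0.0282 in spermatocytes and 1.86 ± 0.194 in round spermatids (SD, n = 3). No stages overlapped (exact two-sided permutation p = 0.1 for each pair of stages). The ratio of NSMCE2 to NSMCE4A differed less between stages, with 0.0675 ± 0.00103, 0.0495 ± 0.000832 and 0.0540 ± 0.00168, again with no overlap and an exact permutation p of 0.1 for each pair of stages.

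**Figure D2:**
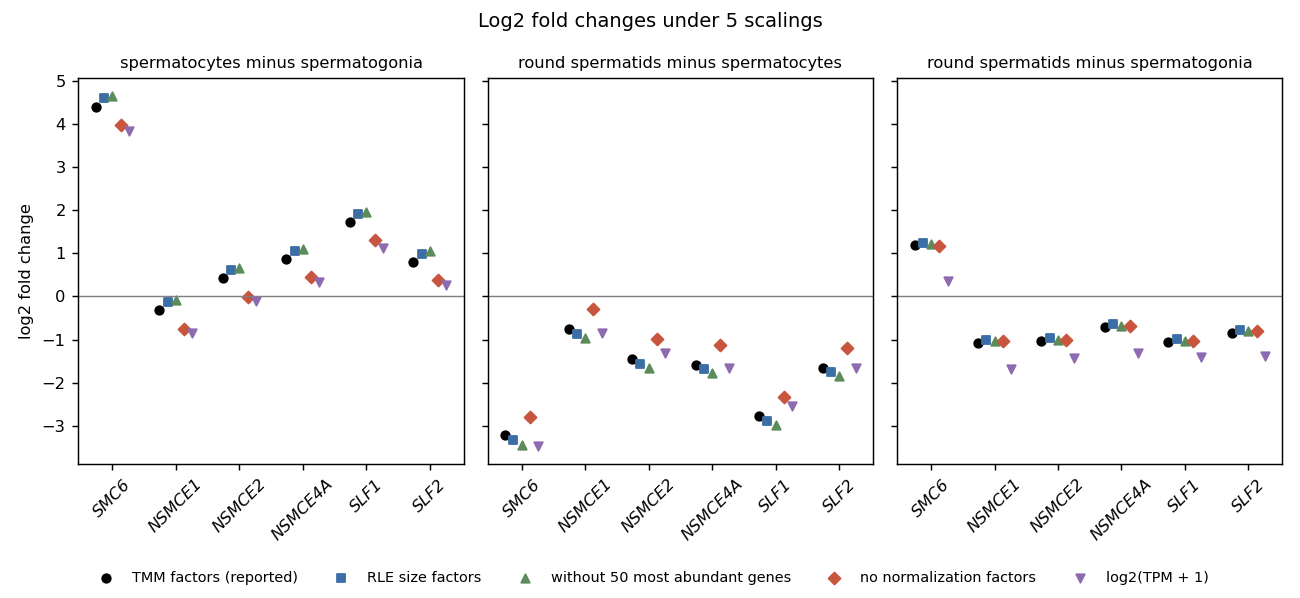
Log2 fold changes of the 6 genes in the 3 comparisons (panels) under 5 scalings (symbols). SMC6 stays near 4 and SLF1 above 1 for spermatocytes minus spermatogonia, NSMCE2 lies on either side of 0, and all 5 partners stay below 0 in the comparisons with round spermatids.

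The scaling bears on the small changes because it shifts all genes. The median log2 change of all genes between spermatocytes and spermatogonia was -0.32 with TMM factors, -0.14 with RLE size factors, -0.09 without the 50 most abundant genes, -0.74 without normalization factors and -0.41 on log2(TPM + 1). The share of genes called higher was 33.4, 34.6, 20.1 and 15.5% under the last 4 of these and that called lower 38.6, 36.8, 54.8 and 50.6%. Partners called higher numbered 4 with RLE size factors and without the 50 most abundant genes, 2 without normalization factors (NSMCE4A and SLF1) and 1 on log2(TPM + 1) (SLF1).

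Round spermatids held less transcript of every partner than spermatocytes. All 5 were lower, where 36.4% of all genes were called lower and 42.7% higher, 79.2% in either direction (edgeR, adjusted p from 1.86e-08 to 5.64e-05). The log2 fold changes were -2.78 ± 0.127 for SLF1, -1.65 ± 0.141 for SLF2, -1.58 ± 0.0993 for NSMCE4A, -1.46 ± 0.108 for NSMCE2 and -0.76 ± 0.104 for NSMCE1, with a median of -1.58 against 0.19 for all genes. In level, SLF1 fell 6.86-fold and NSMCE1 1.69-fold. The call of NSMCE1 was lost without normalization factors (-0.29, adjusted p = 0.0575), the only call lost among the 21 alternatives for these 5 genes. Myoid markers were at 4547 to 5528 CPM in the round spermatid libraries against 8.11 to 20.1 in spermatocytes, and their part in these lower levels was not tested.

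Round spermatids also lay below spermatogonia for every partner, unlike SMC6. All 5 were called lower, where 39.7% of all genes were lower and 39.5% higher, 79.2% in either direction (edgeR, adjusted p from 4.43e-06 to 0.000222). The log2 fold changes were close together, from -1.08 for NSMCE1 to -0.72 for NSMCE4A, around a median of -1.04 against 0.00 for all genes. The calls held in all 21 alternatives for each of the 5 genes, with log2 fold changes from -1.69 to -0.65. SMC6 lay above spermatogonia in round spermatids 1 and 3 and below them in round spermatids 2.

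Since both comparisons with spermatocytes use the same spermatocyte libraries, and both with spermatogonia the same spermatogonia libraries, the directions of a gene across comparisons are not independent of each other. On the CPM scale the order of levels was spermatocytes, spermatogonia, round spermatids for NSMCE2, NSMCE4A, SLF1 and SLF2. On that scale it was spermatogonia, spermatocytes, round spermatids for NSMCE1. On TPM NSMCE2 was lower in spermatocytes (10.37 to 10.94) than in spermatogonia (11.23 to 11.7). SLF2 overlapped between these stages on TPM (32.94 to 51.34 and 34 to 38.03). For SMC6 spermatocytes came first, and round spermatids had a higher mean than spermatogonia but overlapped them through library 2.

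The ratio of SMC6 to each partner was taken within a library and does not depend on the scaling. Since SMC6 was chosen for its level in spermatocytes, a high ratio there was set in part by that choice. SMC6 to NSMCE1 was 0.173, 0.181 and 0.176 in spermatogonia, 4.53, 5.09 and 4.27 in spermatocytes and 1.11, 0.304 and 1.20 in round spermatids, as TPM. SMC6 was well below NSMCE1 in spermatogonia, well above it in spermatocytes and near it in round spermatids 1 and 3. SMC6 to NSMCE4A was 0.421 ± 0.00769 in spermatogonia, 4.86 ± 0.535 in spermatocytes and 1.55 ± 0.799 in round spermatids. The kleisin and the ATPase stood in the same order as NSMCE1 and SMC6 in spermatogonia and in spermatocytes.

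SMC6 to SLF1 was 7.17 ± 0.174 in spermatogonia, 45.7 ± 5.68 in spermatocytes and 32.9 ± 15.7 in round spermatids. Spermatocytes and round spermatids overlapped for this ratio, as they did for no other partner. For SLF2 the ratios were 2.03 ± 0.0740, 25.2 ± 7.21 and 8.43 ± 4.68, and for NSMCE2 6.24 ± 0.128, 98.1 ± 9.57 and 28.8 ± 14.7. The ratio in spermatocytes was 26.1-fold that in spermatogonia for NSMCE1, 15.7-fold for NSMCE2, 12.1-fold for SLF2, 11.5-fold for NSMCE4A and 6.34-fold for SLF1. They are given without a test.

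**Figure D3:**
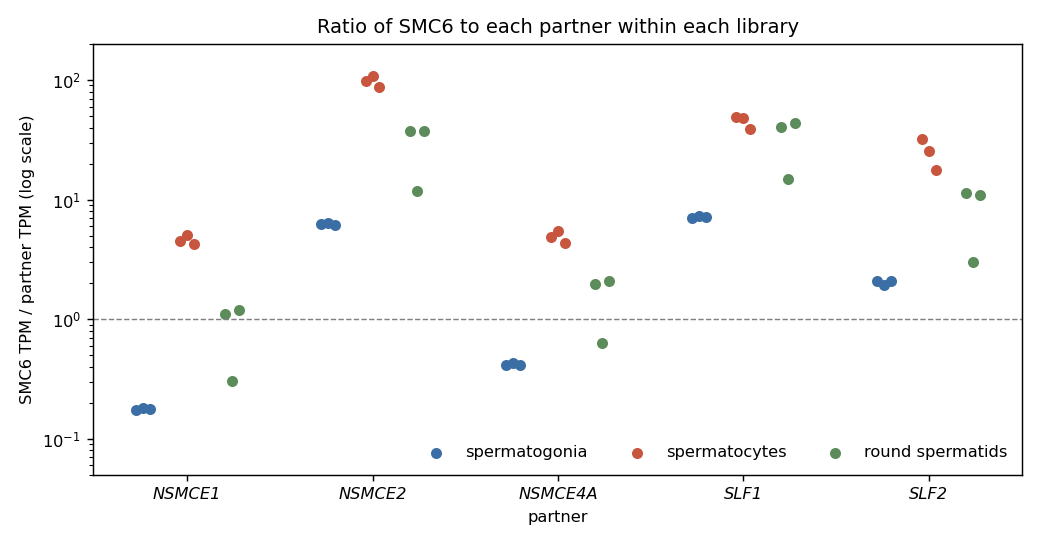
TPM of SMC6 divided by TPM of each partner in each library, on a log axis, with libraries coloured by stage and in the order of their numbers. The dashed line marks equal levels. All ratios are lowest in spermatogonia, and in round spermatids the point in the middle, library 2, lies below the other 2.

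Between genes, NSMCE1 had the highest level per length in spermatogonia at 407 ± 1.97 TPM, before NSMCE4A at 171 ± 1.31, SMC6 at 71.9 ± 1.76, SLF2 at 35.5 ± 2.20, NSMCE2 at 11.5 ± 0.254 and SLF1 at 10.03 ± 0.121 (SD, n = 3). In spermatocytes SMC6 was first at 1048 ± 129.7 TPM. NSMCE1 at 226 ± 10.6 and NSMCE4A at 215 ± 4.37 followed and overlapped each other. SLF2 stood at 43.4 ± 9.44, SLF1 at 23.0 ± 1.37 and NSMCE2 at 10.7 ± 0.286.

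In round spermatids NSMCE1 at 131 ± 47.8 TPM and SMC6 at 98.2 ± 36.1 overlapped, as did SMC6 and NSMCE4A at 69.2 ± 17.4. SLF2 was at 13.4 ± 4.61, NSMCE2 at 3.73 ± 0.928 and SLF1 at 3.17 ± 0.562, the last 2 overlapping. Of the summed TPM of the 6 genes, SMC6 made up 10.02 to 10.36% in spermatogonia, 64.2 to 68.9% in spermatocytes and 15.8 to 40.7% in round spermatids, where library 2 was lowest. NSMCE1 made up 57.1 to 58.0%, 13.54 to 15.04% and 34.0 to 51.8%.

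The libraries of a stage were not equally alike. Across genes, which are not independent replicates, Pearson correlations of log2 CPM were 0.999 between spermatogonia libraries, 0.988 to 0.994 between spermatocytes, 0.997 between round spermatids 1 and 3, and 0.982 and 0.983 between round spermatids 2 and the other 2. The labels' protocols speak of biological samples and do not say whether they came from separate animals, so the p-values measure the spread between libraries, which may be technical. With the spermatogonia libraries summed into 1 sample, an alternative chosen after the data were seen, NSMCE4A, SLF1 and SLF2 kept their calls between spermatocytes and spermatogonia. NSMCE2 (0.35, edgeR, adjusted p = 0.195) and NSMCE1 (-0.39, adjusted p = 0.125) lost theirs.

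Round spermatids 2 stood apart from the other 2 libraries of its stage in SMC6 on both scales, and in the partners only on TPM. CPM and TPM differ by 1 gene factor and 1 library factor. The shift of the partners between the scales is therefore common to all genes of that library and not particular to them. On the CPM scale SMC6 there was 68.4 CPM against a mean of 237 in round spermatids 1 and 3, 3.46-fold lower. The partners in round spermatids 2 were 0.813 (SLF1) to 1.09 (NSMCE1) times their mean CPM in the other 2 libraries. On TPM SMC6 was lower there, at 56.6 against 118.4 and 119.7, and all 5 partners were higher. NSMCE1 stood at 186 TPM against 107 and 99.9, NSMCE4A at 89.2 against 60.7 and 57.6, and SLF2 at 18.7 against 10.4 and 11. NSMCE2 stood at 4.80 TPM against 3.18 and 3.21, and SLF1 at 3.81 against 2.94 and 2.76. Of 8 spermatocyte markers, SYCP1, SYCP2, HORMAD1 and SPO11 were 0.417 to 0.698 times as high there in CPM, and SYCP3, DMC1, STAG3 and MLH3 0.939 to 1.04 times. Round spermatids 2 was also the shallowest library. Without it, the log2 ratio of SMC6 to its median partner changed by -1.14 from spermatocytes to round spermatids in place of -1.76, and by 2.46 in place of 1.83 from spermatogonia to round spermatids.

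The genes whose pattern over the 9 libraries was most like that of SMC6 were picked for that likeness and are a description. Likeness was the root mean square difference of log2(CPM + 0.5), each gene centred on its own mean, so that 0 is an identical pattern. The 5 closest genes with a symbol were ACBD7 (0.207), LHX2 (0.312), CCDC112 (0.343), SKA1 (0.350) and S100Z (0.398). CCDC112, the most abundant of them, stood at 32.6 ± 0.865 CPM in spermatogonia, 423.5 ± 40.3 in spermatocytes and 46.7 ± 19.6 in round spermatids. Of these 5, LHX2 and CCDC112 were also among the closest 5 on log2(CPM + 5), which gives less weight to low levels. ACBD7, the closest, was near the floor, at 0.289 to 0.422 CPM in spermatogonia and 0.359 in round spermatids 2. These levels are below the 0.5 added before taking logs.

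By the same measure SLF1 was at place 677 of 16801 genes, with a distance of 1.21 from SMC6. NSMCE4A followed at place 1991 (1.51), SLF2 at 2350 (1.57), NSMCE2 at 3270 (1.68) and NSMCE1 at 6536 (1.99). The partners were nearer to each other, from 0.188 between NSMCE2 and NSMCE4A, 0.191 between NSMCE4A and SLF2 and 0.234 between NSMCE2 and SLF2 up to 0.941 between NSMCE1 and SLF1. The measure counts the size of a change as well as its shape, so genes with small changes lie near each other by it. The large change of SMC6, which was chosen for its level in spermatocytes, adds to its distance from all partners. These places and distances therefore do not show how far the shapes alone differ. They are a description, as the 9 libraries fall into 3 stages.

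In the annotation of Sscrofa11.1 by RefSeq, matched by symbol, SMC6 (ENSSSCG00000008614) spans chromosome 3 from 120097361 to 120170974. GEN1, a resolvase of recombination intermediates, lies 56 bases from it. GEN1 stood at 6.25 ± 0.412 CPM in spermatogonia, 5.98 ± 0.148 in spermatocytes and 1.22 ± 0.213 in round spermatids. Its log2 fold change of -0.06 between spermatocytes and spermatogonia did not pass (edgeR, adjusted p = 0.717).

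NSMCE1 (ENSSSCG00000036275) lies on chromosome 3 from 19609796 to 19649869, NSMCE2 (ENSSSCG00000037755) on chromosome 4 from 14359323 to 14598192, NSMCE4A (ENSSSCG00000010700) on chromosome 14 from 131592624 to 131609221 and SLF1 (ENSSSCG00000014163) on chromosome 2 from 101286744 to 101375612. SLF2 (ENSSSCG00000037592) had no entry of its symbol in that table. The span of NSMCE2 overlaps that of WASHC5, which stood at 6.13 ± 0.392, 3.43 ± 0.810 and 23.3 ± 0.630 CPM in the 3 stages, highest where NSMCE2 was lowest. The span of SLF1 overlaps that of KIAA0825, at 21.4 ± 1.08, 25.2 ± 2.72 and 7.43 ± 0.935 CPM. The spans of NSMCE4A and NSMCE2 also overlap those of the long noncoding RNA genes LOC100513313 and LOC106509961, which matched no identifier. Whether counting used the strand is not given in the sources used here. The values of NSMCE2, NSMCE4A and SLF1 are therefore uncertain to the extent that such overlapping genes share reads.

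The SMC ATPases of other complexes were listed beside SMC6, whose own value was chosen for its size and supports no comparison with them. Cohesin is built on SMC3 with SMC1A or its meiotic form SMC1B, condensin on SMC2 and SMC4, and SMCHD1 is a relative that acts on the inactive X chromosome. Of these 6 genes 5 were higher in spermatocytes than in spermatogonia and SMC1A did not pass, in a comparison with 29.3% of all genes higher. The log2 fold changes of the 5 were 2.34 ± 0.229 for SMC3, 2.32 ± 0.169 for SMC4, 2.25 ± 0.201 for SMC1B, 2.17 ± 0.211 for SMCHD1 and 1.71 ± 0.254 for SMC2 (edgeR, adjusted p from 1.74e-06 to 0.000151). The median of the 6 was 2.21, above that of the SMC6 partners at 0.80. SMC1A stood at 24.1 ± 4.63 against 26.8 ± 0.854 CPM (adjusted p = 0.469), and its sign turned under 5 of 21 alternatives, RLE size factors and DESeq2 among them. It was called lower without normalization factors (-0.56, adjusted p = 0.0137), on log2(TPM + 1) (-0.61, limma, adjusted p = 0.0142) and on log2(TPM + 0.1) (-0.68, limma, adjusted p = 0.0133).

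**Figure D4:**
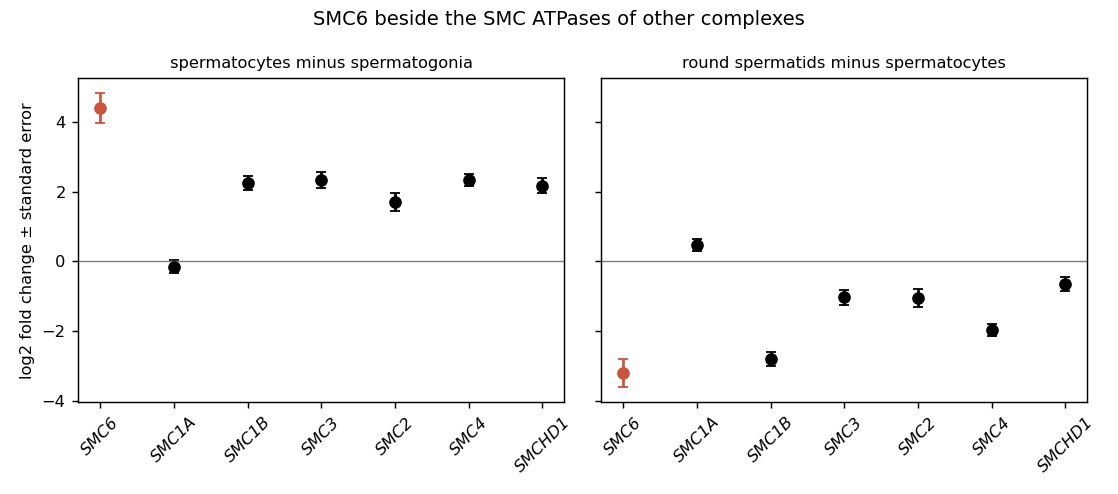
Log2 fold change with its standard error for SMC6 and the 6 ATPases of other complexes, spermatocytes minus spermatogonia (left) and round spermatids minus spermatocytes (right). SMC6, in red, is shown at the 4.40 it was chosen on, and SMC1A is on the other side of 0 in each panel, with a sign on the left that turned under 5 of 21 alternatives.

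Of the same 6 genes 5 were lower in round spermatids than in spermatocytes, from -2.79 ± 0.206 for SMC1B to -0.65 ± 0.202 for SMCHD1, where 36.4% of all genes were lower and 42.7% higher. SMC1A was higher, at 0.47 ± 0.182 (edgeR, adjusted p = 0.0349), a call that was lost in 15 of 21 alternatives (adjusted p up to 0.185) and without any one of 7 libraries (0.0534 to 0.129). The fall of SMCHD1 was -0.42 without round spermatids 2, and its call was lost without normalization factors (-0.22, adjusted p = 0.269). Between round spermatids and spermatogonia, SMC2, SMC3 and SMCHD1 were higher and SMC1B lower, with 39.5% of all genes higher and 39.7% lower. Without round spermatids 2 the number higher was 5, where 41.2% of all genes were higher. Without spermatogonia 2 or 3 the number lower was 0, where 36.9 and 37% of all genes were lower.

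The genes that act with NSMCE2 on SUMO, a small protein tag, rose more often than they fell between spermatogonia and spermatocytes. Of 23 measured genes 14 were higher, 4 were lower and 5 did not pass, with a median of 1.19 against -0.32 for all genes, of which 29.3% were higher and 44% lower. The SUMO proteases SENP6 (2.36 ± 0.139) and USPL1 (1.85 ± 0.119) had the largest rises, and TRIM28 (-1.79 ± 0.186) and DESI2 (-1.10 ± 0.190) the largest falls (edgeR, adjusted p from 7.48e-07 to 0.000430). TRIM28, a corepressor with SUMO ligase activity, stood at 2570 ± 9.83 CPM in spermatogonia and 746 ± 47.8 in spermatocytes. Over all alternatives 12 to 17 of the 23 were higher and 3 to 6 lower, where 15.5 to 36.3% of all genes were higher and 31.6 to 54.8% lower.

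In round spermatids 16 of the 23 SUMO genes were lower than in spermatocytes and 4 were higher, with a median of -0.83 against 0.19 for all genes, of which 36.4% were lower and 42.7% higher. USPL1 (-2.28 ± 0.121) and SENP1 (-1.94 ± 0.167) had the largest falls.

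Among genes listed as recruiting the complex, as alternative subunits or as working beside it at damaged DNA, 6 of 10 were found. Of the 6, 3 were higher in spermatocytes than in spermatogonia, 2 were lower and RNF8 did not pass, where 29.3% of all genes were higher and 44% lower. Without normalization factors, on log2(TPM + 1), and without spermatogonia 1 or 3, 1 was higher and 2 were lower. The share of all genes under these settings was 15.5 to 26.1% higher and 40.4 to 54.8% lower. TOPBP1, a scaffold of the checkpoint response, rose by 1.64 ± 0.134, and BRCA1 by 0.42 ± 0.142 (edgeR, adjusted p = 3.22e-06 and 0.0219), the latter with a sign that turned on TPM and a call lost without spermatogonia 1, 2 or 3 or spermatocytes 4 (adjusted p from 0.0521 to 0.0825). BARD1 fell by 1.28 and MAGEF1 fell by 1.02 (adjusted p = 0.00181 and 0.000454). RAD18, named here after its values were seen because SLF1 binds it, stood at 40.1 ± 1.04, 50.8 ± 3.47 and 28.2 ± 2.10 CPM in the 3 stages (edgeR, adjusted p = 0.0130 between the first 2). The RAD18 call between these 2 stages was lost without normalization factors, on both TPM scales, and without spermatogonia 1 or 3. In round spermatids 4 of the 6 were lower than in spermatocytes, where 36.4% of all genes were, TOPBP1 (-2.34 ± 0.138) and RNF8 (-2.06 ± 0.181) the most.

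Enzymes that process joint DNA molecules, the substrates of the complex in recombination, went in both directions between spermatogonia and spermatocytes, in shares near those of all genes. Of 20 measured genes 7 were higher, 9 lower and 4 did not pass, with a median of -0.25, where 29.3% of all genes were higher and 44% lower with a median of -0.32. The split was 4 higher and 12 lower on log2(TPM + 1), where 15.5% of all genes were higher and 50.6% lower. It was 8 and 6 without the 50 most abundant genes, where the shares of all genes were 34.6 and 36.8%. FANCM, a DNA translocase (2.37 ± 0.164), and RMI1, a cofactor of BLM (2.09 ± 0.167), had the largest rises. The nuclease gene MUS81 (-3.05 ± 0.289) and the helicase gene RECQL4 (-2.27 ± 0.267) had the largest falls (edgeR, adjusted p from 1.42e-06 to 3.04e-05). MUS81 stood at 7.62 ± 0.177, 0.919 ± 0.208 and 4.80 ± 1.90 CPM in the 3 stages.

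In round spermatids 13 of the 20 were lower than in spermatocytes and 3 were higher, with a median of -1.10 against 0.19 for all genes, of which 36.4% were lower and 42.7% higher. HELQ (-2.99 ± 0.149) and FANCM (-2.87 ± 0.168) fell the most, and MUS81 (2.38 ± 0.287) and TOP3A (1.43 ± 0.144), the topoisomerase partner of BLM, rose the most (edgeR, adjusted p from 3.21e-08 to 2.02e-05).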

How the data were processed

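Total RNA was sequenced from 9 libraries in paired reads with a directional kit, per the labels' protocols. The submitters' processing notes name Sscrofa11.1 and bcl2fastq. The sources used here give no aligner, quantifier, annotation or strand setting. The authors deposited a table of estimated counts and a table of TPM per gene. Each estimated count is the TPM scaled by 1 gene factor and 1 library factor (largest log deviation 9.77e-15 over 16193 genes). Deposited TPM columns summed to 88.2 to 96.8% of the full TPM scale. Columns were matched to samples by their headings; 6 other columns of the 15 were not used. That the headings naming KIT and the pachytene stage are the spermatogonia and spermatocytes of the labels rests on the shared numbers and the meaning of those names.

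Symbols were known for 14749 identifiers. Estimated counts were rounded, filtered with filterByExpr, scaled with TMM factors (0.774 to 1.26) and fitted over all 9 libraries with edgeR 4.0.16 (glmQLFit, glmQLFTest, R 4.3.3), calls being Benjamini-Hochberg adjusted p below 0.05. A standard error is the size of the log2 fold change divided by the square root of F. Alternatives used RLE or no factors, other filters, DESeq2 1.42.0, limma 3.58.1 (voom, or log2(TPM + 1) and log2(TPM + 0.1)), only the compared stages, the replicate number as a block, each library left out, the spermatogonia libraries summed, and the 50 most abundant genes removed, the last 2 chosen after seeing the data. The procedure was tested on simulated data.

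The members and lists were chosen with earlier results of these data known. The genes named were all members and, per list and comparison, up to 2 largest rises and 2 largest falls among called genes, all SMC ATPases, and the 5 genes most like SMC6. Some results that this rule names are not reported here. Markers came from 8 fixed lists; 3 endothelial markers summed to 4.36 to 15.03 CPM in the earlier stages and 135 to 154 in round spermatids, and 4 leukocyte markers to 0.770 to 1.91 and 20.6 to 25.0.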

Additional observations from a re-analysis of the deposited data

How the results depend on the processing

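Of the 5 partners, 4 were higher in spermatocytes than in spermatogonia. The number was 2 without normalization factors, 1 on log2(TPM + 1) and 1 on log2(TPM + 0.1), which leave libraries uncorrected for RNA composition. The 1 partner called lower, NSMCE1, became 0 with RLE size factors, without a filter, with DESeq2, with only the compared stages fitted, with the replicate number as a block, with spermatogonia summed, and without the 50 most abundant genes. The share of all genes called lower was 38.6% with RLE size factors, 31.6% without a filter and 39.2% with DESeq2. It was 39.9% with only the compared stages and 36.8% without the 50 most abundant genes. Leaving out each library gave 0 to 1 partner lower, where 40.4 to 45.2% of all genes were. The sign of NSMCE2 turned to -0.008 without normalization factors, -0.103 on log2(TPM + 1) and -0.111 on log2(TPM + 0.1). That of SMC1A turned to 0.027 with RLE factors, 0.069 without a filter, 0.027 with DESeq2, 0.052 with only the compared stages and 0.086 without the 50 most abundant genes, and that of BRCA1 to -0.113 and -0.121 on the TPM scales. The cause was not tested. In the comparisons with round spermatids all partner counts stayed within 1.5 times.

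Same-numbered libraries deviated together with correlations of -0.116 to 0.0416 across genes, and libraries with different numbers with -0.151 to 0.144. With 3 libraries per stage these values cannot tell whether same-numbered libraries share an animal or a batch. With the replicate block the partners called between spermatocytes and spermatogonia were 4 higher and 0 lower (NSMCE1, -0.24, edgeR, adjusted p = 0.102), and no other partner's call changed. Under that block 27.6% of all genes were higher and 43.3% lower. The change of the log2 ratio of SMC6 to its median partner was 3.40 to 3.82, -2.09 to -1.14 and 1.503 to 2.46 with single libraries left out, in the order of the comparisons above. SLF1, at 361.5 to 443 counts in round spermatids, is the least deeply covered value.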
